A study of Xenopus tropicalis with 10 samples.

Results

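The genes described here mark white blood cells, and above all the myeloid branch that gives macrophages and neutrophils. A list of 10 such genes was followed through tail regeneration in the frog *Xenopus tropicalis*: SPI1, CSF1R, CSF3R, CEBPA, PTPRC, CORO1A, LCP1, LAPTM5, TYROBP and VAV1. A gene of the table was taken as a member when its symbol equalled a listed one, ignoring case, or carried it with a copy number. This found 6 of the 10, SPI1, CEBPA, CSF1R, PTPRC, LCP1 and LAPTM5, among 26550 genes, and each of them passed the filter on low values. TYROBP was found only through its RefSeq gene ID (LOC100493958), so its values stand beside the members and it is not counted among them. CSF3R, CORO1A and VAV1 are not analysed here.

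Tail tissue of stage 40 tadpoles was sequenced as 10 libraries in 6 groups, and hpa stands for hours post amputation. The 2 whole tail libraries hold the tail taken off by a first cut, and the 2 libraries of 0 hpa hold the tissue next to that wound, taken from the cut tadpoles by a second cut made at once. Regenerating tails gave 1 library each for 6 and 15 hpa and 2 libraries each for 24 and 72 hpa. No transgene, drug or mutation is named for any group, and uncut tails of tadpoles as old as those of 72 hpa were not among the groups. Duplicates are mentioned in the series' design text, and whether the lone libraries of 6 and 15 hpa are merged from them is unknown. The labels do not tie replicates to separate animals or pools, so each p-value reflects only how far these libraries lie apart, which may be technical.

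Macrophages and neutrophils move into wounded tissue from the blood and from neighbouring tissue, and neutrophils are usually the earlier of these cells to arrive. In mammals the transcription factor SPI1 (PU.1), with C/EBP factors such as CEBPA, switches on the myeloid programme, including the gene of CSF1R, the receptor through which CSF1 and IL34 keep macrophages alive. PTPRC (CD45), LCP1 and LAPTM5 are made by most white blood cells, so none of them marks a single lineage.

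Gene reads per library ranged from 15966579 (72 hpa replicate 2) to 128768239 (6 hpa), with 121670034 at 15 hpa and 22114681 to 58467586 in the other 7 libraries. Values are normalised reads, the authors' gene reads divided by a size factor for each library. A count of 3 reads was worth 0.852 normalised reads in the deepest library and 7.29 in the shallowest, so every member was far above this floor in every library. Genes of red blood cells, 19 in the table, took most in the tissue beside the fresh wound, with 1.37% and 4.33% of gene reads in the 0 hpa libraries, and 0.137% (72 hpa replicate 1) to 1.0% (6 hpa) in the other 8. The share of skeletal muscle genes, all 16 of them read in every library, was 0.139% to 1.06%. In bulk tissue, fewer cells of a type and less RNA per cell cannot be told apart.

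Added together, the 6 members made up a larger share of the tail's RNA at every time from 6 hpa on than in either the whole tail or the 0 hpa tissue. Their summed level came to 2297 and 2551 normalised reads in the whole tail libraries, 3217 and 3395 in those of 0 hpa, 7275 in the 6 hpa library, 10280 in the 15 hpa library, 5196 and 6245 in those of 24 hpa, and 10680 and 9843 in those of 72 hpa. The 24 hpa libraries stood below those of 6, 15 and 72 hpa and above those of 0 hpa. As a share of gene reads the sum was 0.0295% and 0.0254% at 72 hpa, against 0.0058% and 0.00652% in the whole tail. The sum is led by CSF1R and LCP1, the most highly read members, so the genes are given one by one below.

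**Figure D1:**
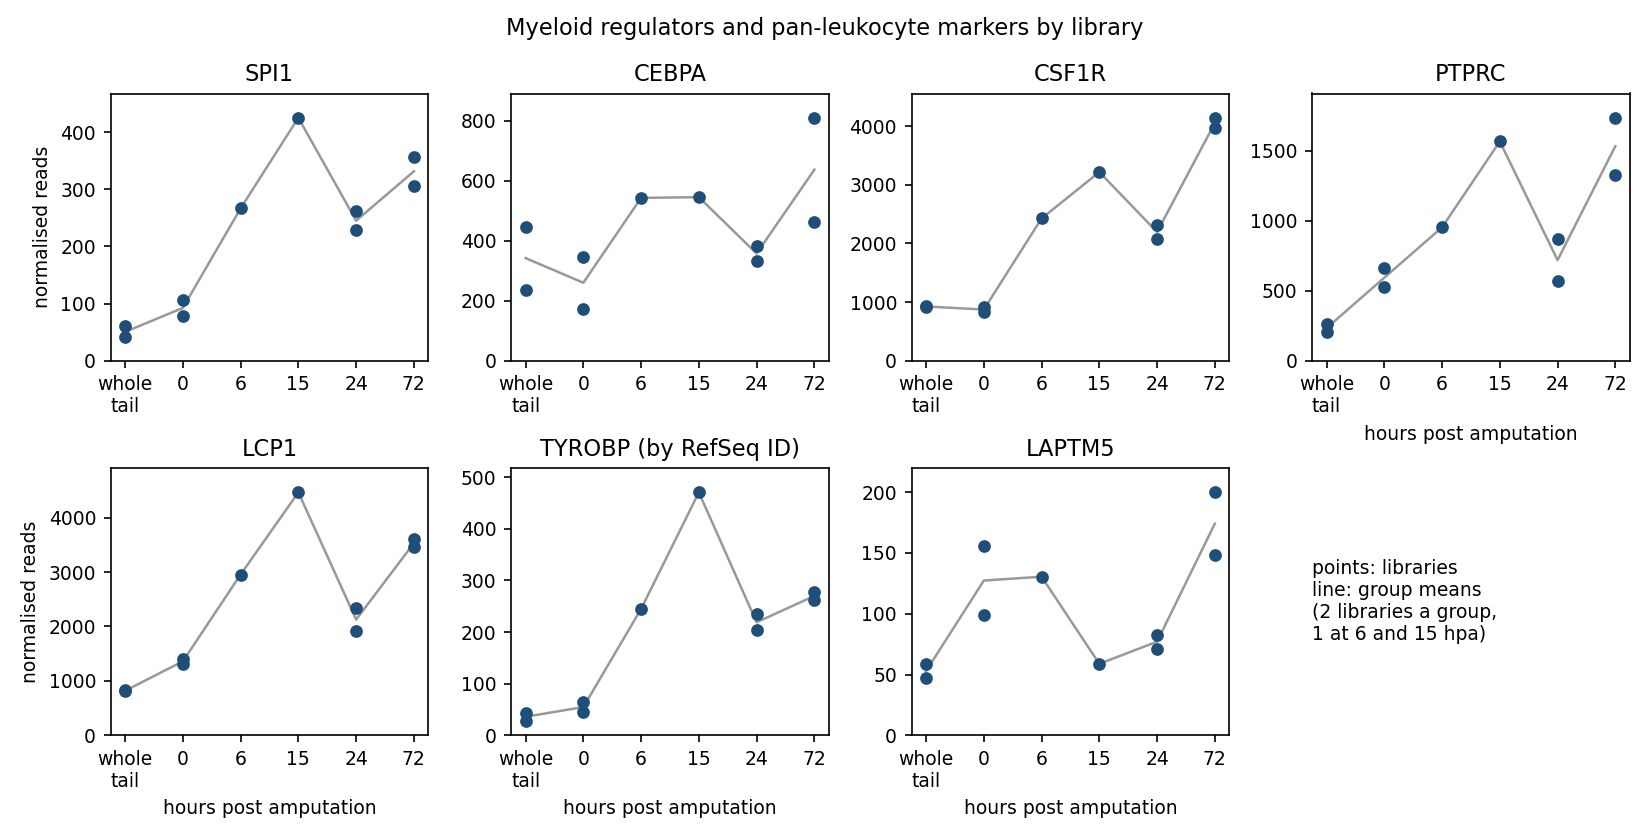
Normalised reads (vertical axes, starting at 0) of the 6 members and TYROBP in each of 10 libraries, over the whole tail and the hours post amputation (horizontal axis, categories not to scale), with points for libraries and a line through the group means. SPI1, PTPRC, LCP1 and TYROBP have their highest group at 15 hpa, where there is 1 library, CSF1R, CEBPA and LAPTM5 have theirs at 72 hpa, and LAPTM5 is low at 15 hpa.

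Of the transcription factors, SPI1 had 60.29 and 40.7 normalised reads in the whole tail libraries, 78.69 and 106.3 in those of 0 hpa, 266.7 in the 6 hpa library, 425.2 in the 15 hpa library, 228.4 and 261.8 in those of 24 hpa, and 356.8 and 306.2 in those of 72 hpa. Its order of groups, from lowest to highest, was whole tail, 0, 24, 6, 72 and 15 hpa, with no overlap between the libraries of neighbours in that order. The order was read from these same values, and 6 and 15 hpa have 1 library each. Of all genes, 18% had both 0 hpa libraries above the whole tail, and 26.3% both 24 hpa libraries above 0 hpa. The share of genes with all groups apart was not counted, here or for the genes below. At 6 hpa SPI1 already stood at 62.7% of its 15 hpa level. CEBPA, which is also made in liver and fat, had 237.4 and 447.7 normalised reads in the whole tail libraries, 174.3 and 346.3 in those of 0 hpa, 543.4 in the 6 hpa library, 545.8 in the 15 hpa library, 332.3 and 383.0 in those of 24 hpa, and 810.6 and 464.2 in those of 72 hpa. Its replicates lay far apart, with a mean of 637.4 ± 245 at 72 hpa, 260.3 ± 122 at 0 hpa and 342.6 ± 149 in the whole tail (SD, n = 2 each). The libraries of 0 hpa and the whole tail overlapped for CEBPA, as did those of 24 hpa with both the whole tail and 0 hpa. The 6 and 15 hpa libraries both fell between those of 72 hpa. Of the 6 liver and fat genes tested, FABP4, a fatty acid carrier of fat cells and some macrophages, rose at 72 hpa against 0 hpa (log2 fold change 1.3, SE 0.25, limma adjusted p = 0.0304), a call lost without any 0 hpa or 72 hpa library. The other 5 had lower values at 72 hpa, none of them called, the median of the 6 was -0.135, and 2.87% of all genes were called higher. Fibrinogen genes of the liver, FGA, FGB and FGG, were at 7.291 normalised reads or fewer in every library.

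CSF1R, the receptor of the macrophage growth factor CSF1, had 939.6 and 913.1 normalised reads in the whole tail libraries, 837.5 and 908.7 in those of 0 hpa, 2427 in the 6 hpa library, 3218 in the 15 hpa library, 2074 and 2317 in those of 24 hpa, and 3966 and 4144 in those of 72 hpa. Whole tail and 0 hpa libraries lay close together, and all 6 libraries from 6 hpa on lay above them. Taken singly, the 24 hpa libraries lay above those of 0 hpa in 26.3% of all genes, and the 72 hpa libraries in 27%. How many genes have all later libraries above the earlier ones was not counted, here or for other genes below. Its highest group was 72 hpa, with 4055 ± 126 against 873.1 ± 50.3 at 0 hpa (SD, n = 2 each), and 6 hpa stood at 59.9% of that level. In fish, CSF1R is also needed by pigment cells of the skin, and pigment cells were not followed here.

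PTPRC, the phosphatase CD45 on the surface of white blood cells, had 203.1 and 263.2 normalised reads in the whole tail libraries, 661.4 and 525.8 in those of 0 hpa, 953.2 in the 6 hpa library, 1567 in the 15 hpa library, 568.9 and 869.3 in those of 24 hpa, and 1736 and 1329 in those of 72 hpa. Both 0 hpa libraries lay above the whole tail, the 0 and 24 hpa libraries overlapped, and the 15 hpa library fell between those of 72 hpa. LCP1 (L-plastin), which bundles actin in leukocytes, had 808.8 and 827.6 normalised reads in the whole tail libraries, 1310 and 1409 in those of 0 hpa, 2954 in the 6 hpa library, 4463 in the 15 hpa library, 1921 and 2331 in those of 24 hpa, and 3610 and 3451 in those of 72 hpa. LCP1 had the same order of groups as SPI1, and no neighbours in the order overlapped. TYROBP (DAP12), the adaptor through which receptors such as TREM2 signal in myeloid cells, had 43.59 and 28.49 normalised reads in the whole tail libraries, 63.71 and 45.8 in those of 0 hpa, 244.8 in the 6 hpa library, 470.6 in the 15 hpa library, 203.8 and 234.1 in those of 24 hpa, and 277.6 and 262.5 in those of 72 hpa. It too followed the order of SPI1, and all its libraries from 6 hpa on lay above those of the whole tail and 0 hpa.

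LAPTM5, a lysosomal membrane protein of blood cells, had another order of groups than the members above. It had 47.3 and 58.34 normalised reads in the whole tail libraries, 155.5 and 98.93 in those of 0 hpa, 130.4 in the 6 hpa library, 58.79 in the 15 hpa library, 71.11 and 82.85 in those of 24 hpa, and 199.7 and 148.3 in those of 72 hpa. The 15 hpa value, from 197 reads, has a 95% Poisson interval of 50.87 to 67.6 normalised reads, and the 6 hpa value, from 459 reads, one of 118.7 to 142.9, both covering counting error only. The 15 hpa library, highest of all for SPI1, LCP1 and TYROBP, was thus below both 0 hpa libraries for LAPTM5 and only just above the higher whole tail library. Over the 10 libraries, the correlation of each gene's log2 level with the mean of the other members was 0.952 for LCP1, 0.941 for PTPRC, 0.903 for CSF1R, 0.898 for SPI1, 0.897 for TYROBP, 0.656 for CEBPA and 0.456 for LAPTM5 (Pearson's r, a description over libraries that share groups and depth).

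The first test asked whether a gene varied over the 6 groups at all. CSF1R, LCP1, PTPRC and SPI1, 4 of the 6 members, did so, with limma adjusted p of 0.0107, 0.0119, 0.026 and 0.026, where 2.27% of the 17896 genes tested were called. TYROBP had an adjusted p of 0.0177, LAPTM5 0.16 and CEBPA 0.39. CSF1R and LCP1 were called with any of the 8 libraries of the groups of 2 left out. PTPRC and SPI1 were not called without any of the whole tail, 0 hpa or 72 hpa libraries, which left 2 members called, and SPI1 was also not called without 24 hpa replicate 2, which left 3. TYROBP was called without either 24 hpa library or 72 hpa replicate 1 and lost without any of the other 5. DESeq2 called 5 members, LAPTM5 being the fifth, where it called 19.6% of genes.

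**Figure D2:**
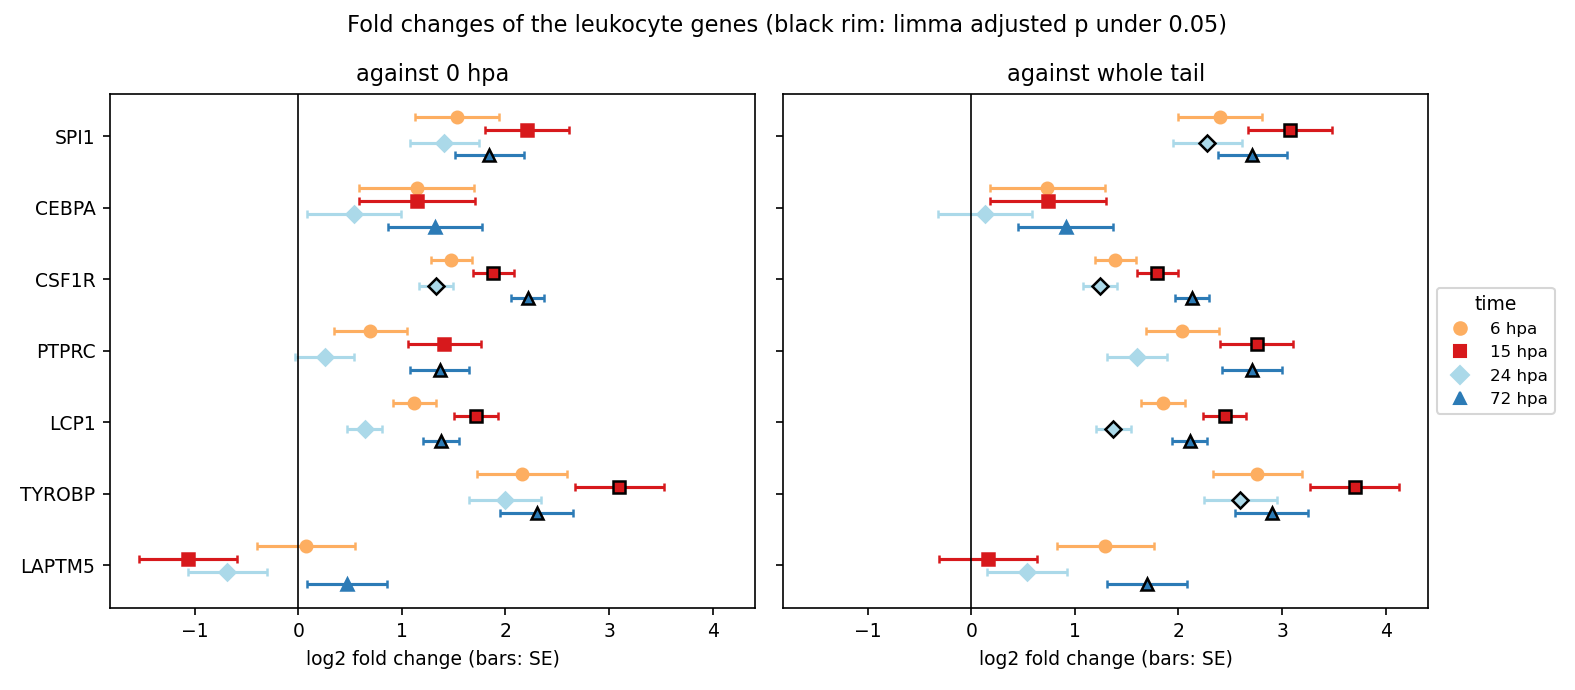
Log2 fold change (horizontal axis, bars are the SE) of the 6 members and TYROBP at 6, 15, 24 and 72 hpa against 0 hpa (left) and against the whole tail (right), from a single limma fit of 10 libraries, with black rims where the adjusted p is under 0.05. CSF1R is past the threshold against 0 hpa at 15, 24 and 72 hpa, CEBPA at no time, and LAPTM5 only at 72 hpa against the whole tail.

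The tissue beside the fresh wound was set against the whole tail. These are different parts of the tail, the second cut being made at once, so place and the cut cannot be told apart. PTPRC stood higher there, with 593.6 ± 95.9 normalised reads at 0 hpa and 233.2 ± 42.5 in the whole tail (SD, n = 2 each), a log2 fold change of 1.35 (SE 0.29). LAPTM5 differed by 1.22 (SE 0.39), SPI1 by 0.87 (SE 0.33), LCP1 by 0.73 (SE 0.17) and TYROBP by 0.60 (SE 0.35), while CSF1R stood at -0.09 (SE 0.16) and CEBPA at -0.41 (SE 0.46). In 4 of 6 members both 0 hpa libraries lay above both whole tail libraries, as in 18% of all genes. No member passed the adjusted threshold by limma or edgeR, nor did any gene (0% called). At an unadjusted p under 0.05, 4 members were higher by limma and 4 by edgeR, where 4.16% and 4.19% of genes were. DESeq2 called PTPRC (adjusted p = 0.00756), where 1.1% of genes were called higher. All 18 red blood cell genes tested also had a higher value at 0 hpa, with a median log2 fold change of 1.64, and RHAG alone of the 19 had no read in a 0 hpa library. The part of blood in the 0 hpa values was not tested.

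At 6 hpa the values of all 6 members were above the 0 hpa mean, but none of them passed the adjusted threshold. CSF1R differed by 1.48 on the log2 scale (SE 0.20, limma adjusted p = 0.19), LCP1 by 1.12 (SE 0.21, 0.36) and TYROBP by 2.16 (SE 0.43, 0.40). SPI1 stood at 1.53 (SE 0.41), CEBPA at 1.14 (SE 0.56), PTPRC at 0.69 (SE 0.35) and LAPTM5 at 0.07 (SE 0.47). The 6 hpa library lay above both 0 hpa libraries for 5 of 6 members, LAPTM5 being the exception, where this held for 35% of all genes. limma and edgeR called no gene higher (0%), and 3 members were higher at an unadjusted p under 0.05 by either tool, where 3.48% of genes were by limma and 4.01% by edgeR. DESeq2 called CSF1R and LCP1, 2 of 6, where it called 0.57% of genes. Against the whole tail the 6 hpa library gave log2 fold changes of 1.85 for LCP1, 2.04 for PTPRC and 2.40 for SPI1 and limma adjusted p of 0.0558, 0.0927 and 0.0927. By limma no gene was called higher in that comparison (0%), with 5 members at an unadjusted p under 0.05 (5.3% of genes), and edgeR called 2 of 6 members (0.302% of genes) and DESeq2 4 (1.69%).

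At 15 hpa the first members passed the test against 0 hpa. CSF1R rose, with 3218 normalised reads at 15 hpa against a mean of 873.1 at 0 hpa, which is 1.88 on the log2 scale (SE 0.20) with a limma adjusted p = 0.0318. LCP1 rose by 1.72 (SE 0.21, 0.041), and TYROBP by 3.10 (SE 0.43, 0.044). SPI1 stood at 2.20 (SE 0.41, 0.0857), PTPRC at 1.41 (SE 0.35, 0.16), CEBPA at 1.15 (SE 0.56, 0.43) and LAPTM5 at -1.06 (SE 0.47, 0.38). Thus 2 of 6 members were called higher, where 0.229% of genes were, and none lower (0.134%). These calls rest on the estimate of the spread from few libraries. CSF1R alone was called without either whole tail library, and no member without either 0 hpa, 24 hpa or 72 hpa library, with adjusted p for CSF1R of 0.0491 to 0.121 over the 8 libraries left out, for LCP1 of 0.0603 to 0.144 and for TYROBP of 0.0634 to 0.163. The 15 hpa group has no replicate of its own.

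Set against the whole tail, 15 hpa gave 4 of 6 members called higher, where 0.514% of genes were. SPI1 rose by 3.08 on the log2 scale (limma adjusted p = 0.0224), PTPRC by 2.76 (0.0212), LCP1 by 2.45 (0.0101), CSF1R by 1.80 (0.0153) and TYROBP by 3.70 (0.0161). CEBPA stood at 0.74 (0.65) and LAPTM5 at 0.16 (0.93). Without whole tail replicate 1 no member was called, and without whole tail replicate 2 LCP1 alone was. SPI1 was also lost without any of the 24 hpa or 72 hpa libraries, which left 3 called. TYROBP was lost without either whole tail library. Comparisons with 0 hpa and with the whole tail share the 15 hpa library and a common estimate of the spread. The whole tail is another part of the tail, so against it place and time cannot be told apart, here or at later times.

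At 24 hpa CSF1R stayed above 0 hpa, with 2196 ± 172 normalised reads against 873.1 ± 50.3 (SD, n = 2 each), which is 1.33 on the log2 scale (SE 0.16) with a limma adjusted p = 0.0231. It was the only member called, 1 of 6, where 0.665% of genes were called higher. TYROBP stood at 2.0 (SE 0.35, 0.0557), SPI1 at 1.41 (SE 0.33, 0.11), LCP1 at 0.64 (SE 0.17, 0.14), CEBPA at 0.54 (SE 0.46, 0.60), PTPRC at 0.25 (SE 0.29, 0.71) and LAPTM5 at -0.69 (SE 0.39, 0.41). For PTPRC, with 719.1 ± 212 at 24 hpa and 593.6 ± 95.9 at 0 hpa, the libraries of the groups overlapped. CSF1R was not called when any 0 hpa or 24 hpa library was left out, with adjusted p up to 0.167. Against the whole tail, 3 of 6 were called, where 0.793% of genes were: CSF1R (1.24, 0.0246), LCP1 (1.37, 0.0225) and SPI1 (2.28, 0.0315), beside TYROBP (2.60, 0.0266) and with PTPRC at 1.60 (0.0523). None of the 3 was called there when any whole tail, 0 hpa or 24 hpa library was left out, and SPI1 was lost without either 72 hpa library. TYROBP too was lost without any whole tail, 0 hpa or 24 hpa library.

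At 72 hpa more members were called against 0 hpa than at any earlier time. CSF1R rose by 2.21 (SE 0.16, limma adjusted p = 0.00272), SPI1 by 1.84 (SE 0.33, 0.0263), LCP1 by 1.38 (SE 0.17, 0.00968), PTPRC by 1.36 (SE 0.29, 0.037) and TYROBP by 2.30 (SE 0.35, 0.0175). CEBPA stood at 1.32 (SE 0.46, 0.13), and DESeq2 called it higher (adjusted p = 0.0498), and LAPTM5 stood at 0.47 (SE 0.39, 0.50). The log2 fold changes of SPI1, LCP1, PTPRC and TYROBP were higher at 15 hpa (2.20, 1.72, 1.41 and 3.10). Those of CSF1R, CEBPA and LAPTM5 were higher at 72 hpa. In all, 4 of 6 members were called higher, where 2.87% of genes were, and none lower (3.53%), while DESeq2 called 5 higher (5.63% of genes). CSF1R was called with any library left out. Without either 0 hpa library CSF1R was the only member called, without either 72 hpa library CSF1R and LCP1 were, and without either whole tail library PTPRC was lost. TYROBP was lost without any 0 hpa or 72 hpa library, with adjusted p up to 0.08.

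Against the whole tail, 72 hpa gave 5 of 6 members called higher, where 4.61% of genes were. The log2 fold changes were 2.13 for CSF1R (limma adjusted p = 0.00218), 2.11 for LCP1 (0.00228), 2.71 for PTPRC (0.00471), 2.71 for SPI1 (0.0064), 2.90 for TYROBP (0.00621) and 1.69 for LAPTM5 (SE 0.39, 0.0365). LAPTM5 had 174 ± 36.4 normalised reads at 72 hpa against 52.82 ± 7.8 in the whole tail (SD, n = 2 each). The call was lost without any whole tail, 24 hpa or 72 hpa library. Over all 8 libraries left out its log2 fold change was 1.48 to 1.91. At 0 hpa LAPTM5 already stood 1.22 above the whole tail, and at 72 hpa it differed from 0 hpa by 0.47 (limma adjusted p = 0.50). PTPRC stood 1.35 above the whole tail at 0 hpa. CSF1R, LCP1, PTPRC, SPI1 and TYROBP were called with any of the 8 libraries left out. CEBPA stood at 0.91 (0.25).

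The lower values at 24 hpa were examined by comparing neighbouring times. The 15 hpa side is a single library of 121670034 gene reads, against 27948915 and 30181402 in those of 24 hpa. Time and library cannot be told apart in that comparison. At 24 hpa against 15 hpa, PTPRC differed by -1.16 (SE 0.35), TYROBP by -1.10, LCP1 by -1.08 (SE 0.21), SPI1 by -0.80, CEBPA by -0.61 and CSF1R by -0.55, and LAPTM5 by 0.38. limma and edgeR called no gene lower (0%), and 3 members were lower at an unadjusted p under 0.05 by either tool, where 1.58% and 1.94% of genes were. DESeq2 called LCP1 (adjusted p = 0.0109), where 0.235% of genes were called lower. At 72 hpa against 24 hpa, both libraries of 72 hpa lay above both of 24 hpa for 6 of 6 members, where this held for 21.4% of genes. The differences were 1.15 for LAPTM5, 1.11 for PTPRC, 0.89 for CSF1R, 0.78 for CEBPA, 0.74 for LCP1, 0.43 for SPI1 and 0.30 for TYROBP. No member passed the adjusted threshold (0.0391% of genes called higher by limma, 0.00559% by edgeR), 4 were higher at an unadjusted p under 0.05 by either tool (5.29% and 5.62%), and DESeq2 called CSF1R, LCP1 and PTPRC (1.43%). Between the single libraries of 15 and 6 hpa no member was called by limma, edgeR or DESeq2 (higher, 0.00559%, 0.00559% and 0.212% of genes), and 1 member, LCP1 at 0.60, was higher at an unadjusted p under 0.05 by limma (2.29%) and none by edgeR (2.17%). The median log2 fold change of the 6 members against 0 hpa was 1.13 at 6 hpa and 1.56 at 15 hpa, then 0.588 at 24 hpa and 1.37 at 72 hpa, while that of all genes lay between -0.0182 and 0.0199.

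The proportions among some of the genes also differed between groups. Reads of a member divided by LCP1 reads of the same library do not depend on the scaling, and LCP1 was taken as the divisor after its values were seen. CSF1R had a ratio of 1.16 and 1.1 in the whole tail libraries, 0.639 and 0.645 in those of 0 hpa, 0.822 in the 6 hpa library, 0.721 in the 15 hpa library, 1.08 and 0.994 in those of 24 hpa, and 1.1 and 1.2 in those of 72 hpa. The 0, 6 and 15 hpa libraries thus lay below all the others. For TYROBP the ratio came to 0.0539 and 0.0344 in the whole tail libraries, 0.0486 and 0.0325 in those of 0 hpa, 0.0829 in the 6 hpa library, 0.105 in the 15 hpa library, 0.106 and 0.1 in those of 24 hpa, and 0.0769 and 0.0761 in those of 72 hpa, above the whole tail and 0 hpa in every later library. For LAPTM5 it came to 0.0585 and 0.0705 in the whole tail libraries, 0.119 and 0.0702 in those of 0 hpa, 0.0441 in the 6 hpa library, 0.0132 in the 15 hpa library, 0.037 and 0.0355 in those of 24 hpa, and 0.0553 and 0.043 in those of 72 hpa, lowest at 15 hpa. SPI1 had ratios of 0.0492 to 0.0754 in the whole tail and 0 hpa libraries and 0.0887 to 0.119 in the later ones. For PTPRC and CEBPA the libraries of several groups overlapped. PTPRC had 0.251 and 0.318 in the whole tail, 0.505 and 0.373 at 0 hpa and 0.296 to 0.481 later. CEBPA ranged from 0.122 (15 hpa) to 0.541 (whole tail replicate 2). These ratios were not tested.

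**Figure D3:**
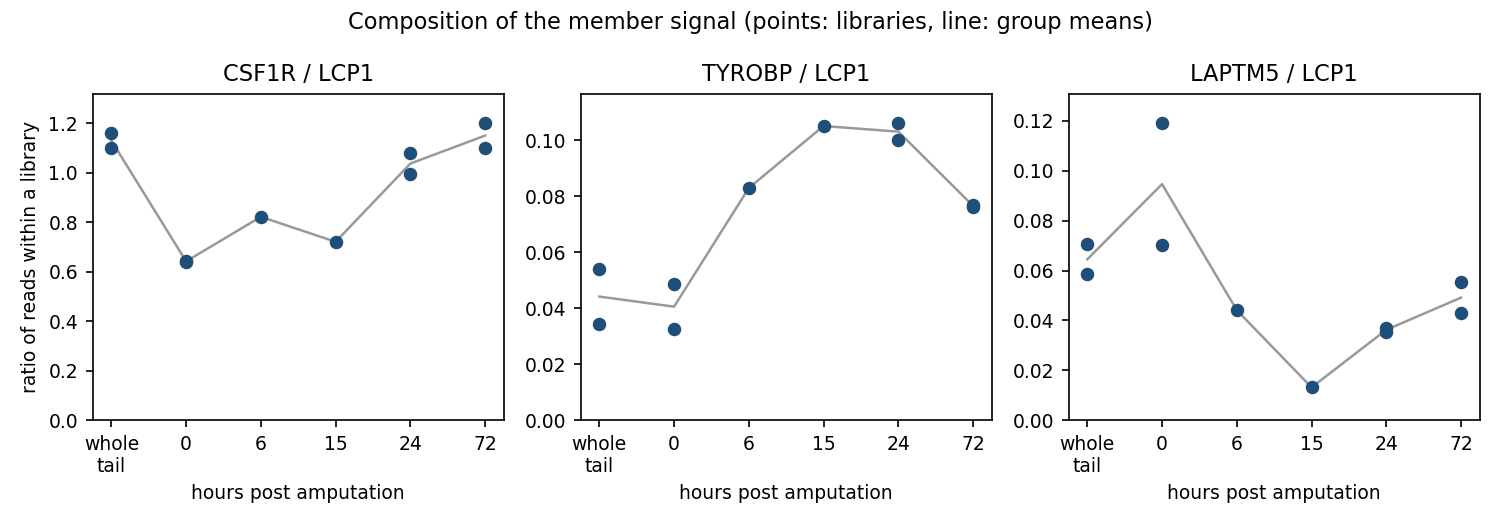
Reads of CSF1R, TYROBP and LAPTM5 divided by LCP1 reads of the same library (vertical axes, starting at 0) over the whole tail and the hours post amputation, with points for libraries and a line through the group means. CSF1R per LCP1 is lowest at 0 hpa (0.639 and 0.645), TYROBP per LCP1 is at 0.0761 or more from 6 hpa on, and LAPTM5 per LCP1 is lowest at 15 hpa (0.0132).

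The growth factors that act on these cells were followed as well. CSF1 (found by its RefSeq ID, LOC100492777), the ligand of CSF1R, had 289.4 and 213 normalised reads in the whole tail libraries, 665.2 and 465.3 in those of 0 hpa, 1199 in the 6 hpa library, 786.3 in the 15 hpa library, 638.6 and 605.2 in those of 24 hpa, and 988.7 and 1167 in those of 72 hpa, so its highest library was that of 6 hpa. IL34, the other ligand of CSF1R, had its highest library at 15 hpa (44.76), with 15.77 to 38.89 in the others. CSF3, which drives neutrophil production, had 3.71 and 20.35 in the whole tail libraries, 251.1 and 258.3 in those of 0 hpa, 105.9 in the 6 hpa library, 39.99 in the 15 hpa library, 6.837 and 9.606 in those of 24 hpa, and 9.893 and 136.1 in those of 72 hpa. Both 0 hpa libraries of CSF3 lay above every other library, but neither the difference from the whole tail (log2 fold change 4.67, SE 1.17, limma adjusted p = 0.352) nor that of 24 hpa from 0 hpa (-4.81, SE 1.17, 0.116) passed the test. CSF2RB, the shared beta chain of the IL3 and GM-CSF receptors in mammals, had 33.39 and 44.77 in the whole tail, 14.99 and 75.11 at 0 hpa and 348.9 at 15 hpa, its highest library.

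RUNX1, a transcription factor of blood stem cells and of myeloid genes that acts ahead of SPI1 in mammals, had 105.7 and 320.2 normalised reads in the whole tail libraries, 245.5 and 131.9 in those of 0 hpa, 1934 in the 6 hpa library, 2589 in the 15 hpa library, 1138 and 1431 in those of 24 hpa, and 1222 and 906.5 in those of 72 hpa. All libraries from 6 hpa on lay above those of the whole tail and 0 hpa, and it rose at 72 hpa against 0 hpa (2.54, SE 0.52, limma adjusted p = 0.035), with 3.84 at 15 hpa (0.0696) and 2.82 at 24 hpa (0.0629). Of the 18 ligands and transcription factors tested, RUNX1 was the only one called higher at 72 hpa against 0 hpa, 1 of 18 where 2.87% of all genes were. GFI1B (-4.14, 0.00594), TAL1 (-3.79, 0.00892) and LMO2 (-2.10, 0.0296), regulators shared with red blood cells and platelets, fell, 3 of 18 where 3.53% of all genes did. RUNX1 was not called without either 0 hpa library, either 72 hpa library or 24 hpa replicate 1. LMO2 was lost without either 0 hpa or either 72 hpa library, while GFI1B and TAL1 were called with any of the 8 libraries left out. Scaling by total gene reads called CSF1 higher as well. The median of the 18 was 0.263. CEBPB and CEBPD, C/EBP factors induced by inflammation, and CEBPE, a factor of late granulocytes, were not called against 0 hpa at any time. At 6, 15 and 24 hpa CEBPD had lower values than at 0 hpa (log2 fold changes -1.91, -1.45 and -1.45). Those of CEBPE were higher (1.59, 2.40 and 0.80), and CEBPB differed little (-0.05, -0.18 and -0.36). CEBPB had 3323 and 16140 normalised reads at 72 hpa, its replicates far apart.

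**Figure D4:**
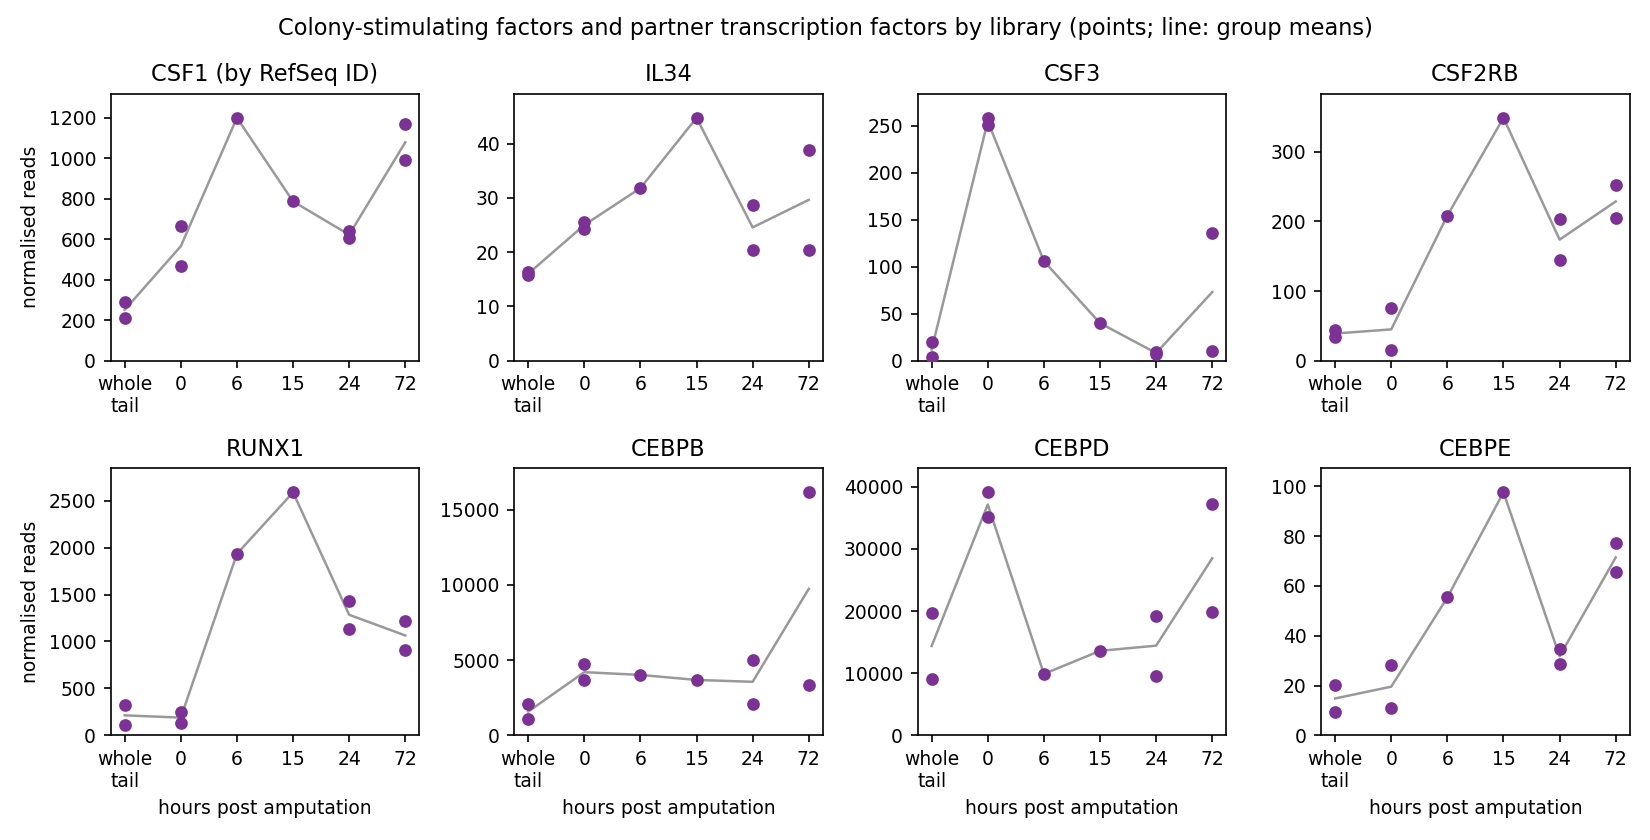
Normalised reads (vertical axes, starting at 0) of the growth factors CSF1, IL34 and CSF3, the receptor chain CSF2RB and the transcription factors RUNX1, CEBPB, CEBPD and CEBPE in each library over the whole tail and the hours post amputation, with points for libraries and a line through the group means. CSF3 is highest in both 0 hpa libraries (251.1 and 258.3), CSF1 is highest at 6 hpa (1199), and RUNX1 is at 906.5 or more from 6 hpa on.

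Genes that work with the members in leukocytes were followed as a list. Of 27 such signalling, integrin and cytoskeleton genes tested, 4 rose at 15 hpa against 0 hpa, where 0.229% of all genes did: the integrin ITGAX (3.51, limma adjusted p = 0.041), the kinase SYK (2.23, 0.044), the small GTPase RAC2 (1.73, 0.0492) and its regulator ARHGDIB (1.59, 0.0426). At 24 hpa none was called by limma (0.665% of genes) or edgeR and 3 by DESeq2 (2.92%), with 10 higher at an unadjusted p under 0.05 by limma (8.49%), and 10 of 27 rose at 72 hpa (2.87% of genes), led by GRAP2 (2.84, 0.0453), SYK (2.13, 0.00861) and ITGAL (2.13, 0.0235). The median log2 fold change of the 27 against 0 hpa was 0.301 at 6 hpa and 1.32 at 15 hpa, then 0.561 at 24 hpa and 1.08 at 72 hpa. Some of the 27 went the other way, with 10 below the 0 hpa mean in the 6 hpa library. The 15 hpa library had 6 such genes, led by TRAF3IP3 (-0.835), BLNK (-0.65) and LYN (-0.37). Lower values were found for 6 genes in the 24 hpa group and for 3 in the 72 hpa group. None of these was called lower. SYK had 107.6 and 99.05 normalised reads in the whole tail libraries, 129.3 and 152.1 in those of 0 hpa, 259.3 in the 6 hpa library, 660.4 in the 15 hpa library, 339.1 and 404.7 in those of 24 hpa, and 637.5 and 597.9 in those of 72 hpa. Its highest library was that of 15 hpa, as for SPI1, but unlike SPI1 it had both 24 hpa libraries above that of 6 hpa. The 4 calls at 15 hpa became 1 without either whole tail library and 0 without any of the other 6. The 10 calls at 72 hpa became 0 without 0 hpa replicate 1, 3 without 0 hpa replicate 2, 2 without either 72 hpa library, 6 without either 24 hpa library and 8 without either whole tail library.

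Markers of single lineages differed in the time of their highest median. Of 9 neutrophil and granulocyte genes tested, all 9 had higher values than at 0 hpa at each later time, with a median log2 fold change of 1.45 at 6 hpa and 2.34 at 15 hpa, then 0.898 at 24 hpa and 1.21 at 72 hpa. MPO, the granule peroxidase of neutrophils, had 1197 and 1041 normalised reads in the whole tail libraries, 2503 and 2713 in those of 0 hpa, 4541 in the 6 hpa library, 11260 in the 15 hpa library, 4515 and 5439 in those of 24 hpa, and 6502 and 3585 in those of 72 hpa, with its highest library at 15 hpa. None of the 9 was called at 15 hpa against 0 hpa by limma or edgeR, where limma called 0.229% of genes higher, 7 were higher at an unadjusted p under 0.05 by limma (7% of genes), and DESeq2 called 6 (2.29%). At 72 hpa 4 of 9 were called higher, where 2.87% of genes were. NCF4 (1.91, limma adjusted p = 0.0323) and NCF1 (1.88, 0.0395), subunits of the oxidase that makes superoxide, and EPX (1.72, 0.0338), a peroxidase of eosinophils, were among those that rose at 72 hpa against 0 hpa. NCF4 and NCF1 were not called without any 0 hpa or 72 hpa library. EPX was not called without either 0 hpa library, either whole tail library or 72 hpa replicate 1. LYZ and CTSG, further markers on the list, did not pass the filter, and LYZ was at 0 in both whole tail libraries, at 6 hpa and in 72 hpa replicate 2.

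The median of the macrophage genes differed most from 0 hpa at the last time, but the sum of their reads, which the most highly read genes lead, did not. The median log2 fold change of the 7 tested against 0 hpa was 0.309 at 6 hpa and 0.323 at 15 hpa, then 0.299 at 24 hpa and 1.71 at 72 hpa. CD68, a lysosomal protein of macrophages found by its RefSeq ID (LOC100496720), had 460.1 and 404.3 normalised reads in the whole tail libraries, 421.6 and 368.2 in those of 0 hpa, 642.5 in the 6 hpa library, 1221 in the 15 hpa library, 1508 and 1040 in those of 24 hpa, and 1756 and 1986 in those of 72 hpa, above all earlier libraries at 72 hpa. It rose at 24 hpa (1.67, limma adjusted p = 0.0315) and 72 hpa (2.24, 0.00594) against 0 hpa. The call at 24 hpa was lost without any 0, 24 or 72 hpa library, and that at 72 hpa held with any of the 8 left out. CD68 was the only 1 of 7 called at 24 hpa, where 0.665% of genes were. At 72 hpa the iron transporter SLC11A1 (4.25, 0.0304) and the scavenger receptor MSR1 (2.65, 0.0283) rose too, which makes 3 of 7 where 2.87% of genes were called. This number was 2 without either 0 hpa library, 1 without either 72 hpa library, 4 without either whole tail library and 3 without either 24 hpa library. MRC1, another scavenger receptor of macrophages, and APOE, which many cell types make, were not called against 0 hpa at any time. Relative to 0 hpa, 5 of the 7 had higher values at 72 hpa and 2 had lower ones. In the 15 hpa library 4 were higher and 3 lower (APOE -1.13, LGMN -0.17 and CTSS -0.07). The 8 on the list summed to 267700 and 257400 normalised reads in the 0 hpa libraries. Their sums were 264400 and 214600 in the 72 hpa libraries, 157800 and 208600 in the whole tail, and lowest in the 15 hpa library (128000). CD68, at 1986 normalised reads or fewer, was a small part of these sums. They follow the most highly read genes of the list rather than the list as a whole. Whether the neutrophil and macrophage lists differ in their course was not tested, and CSF1R, a macrophage gene in this scheme, was already above 0 hpa in the 6 hpa library.

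**Figure D5:**
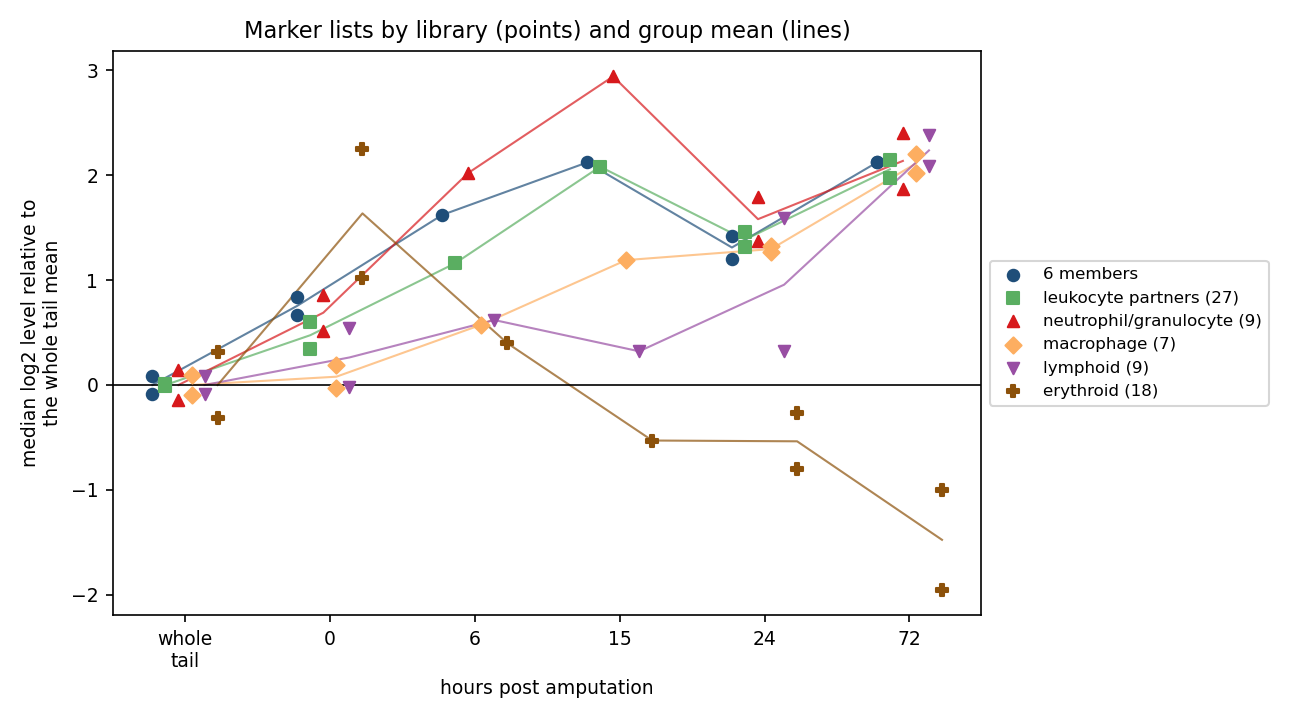
Median log2 level of each gene list relative to the whole tail mean (vertical axis) over the whole tail and the hours post amputation (horizontal axis, points shifted sideways to keep lists apart), with points for libraries and lines through group means, and the number of genes tested in brackets. The 6 members and the neutrophil list are highest at 15 hpa or, for the members, level with it at 72 hpa (2.12 at both), while macrophage and lymphoid lists are highest at 72 hpa and the erythroid list falls after 0 hpa.

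Lymphoid genes had few reads throughout, and the median of those tested was highest at 72 hpa. A gene could pass the filter of 10 normalised reads in 2 libraries through those of 72 hpa alone. How many of the 9 tested did so was not counted, so the median may lean towards genes high at 72 hpa. Against 0 hpa the median log2 fold change of the 9 tested was -0.943 at 6 hpa and 0.49 at 15 hpa. It was 1.16 at 24 hpa and 2.44 at 72 hpa, where 7 of the 9 had higher values. The 14 on the list summed to 154.9 to 285.8 normalised reads in the libraries before 72 hpa and to 708.0 and 549.3 at 72 hpa. CD28, a co-receptor of T cells, rose at 72 hpa against 0 hpa (3.35, limma adjusted p = 0.011), 1 of 9 tested where 2.87% of all genes were called, and was not called without either 0 hpa library or 72 hpa replicate 2. CD3E, a chain of the T cell receptor complex, had 116.2 and 80.2 normalised reads at 72 hpa against 1.874 and 12.82 at 0 hpa (3.95, 0.0507). CD79A, a chain of the B cell receptor, was at 2.735 or fewer normalised reads in every library. The pan-leukocyte members PTPRC, LCP1 and LAPTM5 are made by lymphocytes too, and the part of lymphocytes in their 72 hpa values was not tested.

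Genes of other cells of the tail were followed too. Red blood cell genes had a median log2 fold change against 0 hpa of -1.46 at 6 hpa and -2.54 at 15 hpa, then -2.45 at 24 hpa and -3.63 at 72 hpa. At 72 hpa 14 of 18 fell, where 3.53% of genes did, and this number was 5 without 0 hpa replicate 2, 8 to 9 without 0 hpa replicate 1 or either 72 hpa library, 11 without either whole tail library and 14 without either 24 hpa library. GP1BB, a platelet and thrombocyte surface gene, fell at 72 hpa against 0 hpa (-3.46, limma adjusted p = 0.0172), 1 of 3 thrombocyte genes tested where 3.53% of all genes fell, and was not called without any 0 hpa or 72 hpa library. The 12 endothelial genes tested had medians of 0.232 at 6 hpa and 0.109 at 15 hpa, then -0.549 at 24 hpa and -0.431 at 72 hpa against 0 hpa. The 16 skeletal muscle genes had medians of 0.677 at 6 hpa and 0.416 at 15 hpa, then 0.0261 at 24 hpa and -0.0275 at 72 hpa.

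Over the 10 libraries, the genes most like the mean profile of the 6 members were sought among 10702 other genes with a symbol and at least 50 normalised reads on average. MMP9, a gelatinase of neutrophils and macrophages, came first (Pearson's r = 0.98, a description with no p), with 630.7 and 592.9 normalised reads in the whole tail libraries, 1295 and 1623 in those of 0 hpa, 6179 in the 6 hpa library, 11730 in the 15 hpa library, 2327 and 3796 in those of 24 hpa, and 11020 and 7658 in those of 72 hpa. RASGRP4, a Ras activator of mast cells and other myeloid cells in mammals, followed (0.978), then FCHO1 and FUT4-LIKE.1 (0.971 each), KPNA4 (0.969), MMP7 (0.967), FLNA (0.964), FMNL1 (0.962), APOBR (0.96) and ALOX5AP (0.959). ALOX5AP is needed for leukotriene synthesis in leukocytes and FMNL1 is an actin-organising formin of blood cells, whereas FLNA and KPNA4 are made by most cells. KPNA4 varied little in size, between 5808 and 8151 normalised reads. In the authors' deposited table, SPI1, CSF1R, PTPRC, LCP1 and TYROBP were placed in the authors' cluster C6, which holds 487 genes, or 1.83% of the table. CEBPA and LAPTM5 carry the authors' flag of change but no cluster there, a flag that 19.2% of genes carry in the authors' deposited table and whose test and threshold are unknown here.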

How the data were processed

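The authors deposited normalised signal for 26550 genes in 10 libraries, made per the labels' protocols with a TruSeq kit from 1 ug of RNA. Named in the submitters' processing notes are Trim Galore 0.3.3, HTSeq, TopHat2 2.0.13, DESeq2, SAMtools 1.1 and R 3.2.0. The genome build and the strand setting of the counting are unknown here, so no coordinates are printed. Every deposited signal value (100%) was a whole multiple of the worth of 1 read (tolerance 0.01), and size factors recomputed with DESeq2 differed from these steps by at most 1.6e-09.

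Since the values are normalised signal, limma 3.58.1 (R 4.3.3) was run on log2(value + 1) with a variance trend. A gene needed 10 normalised reads in 2 or more libraries, which 17896 did. All 6 groups shared a fit with 4 residual degrees of freedom, from which the lone 6 and 15 hpa libraries take their spread. A gene was called at a Benjamini-Hochberg adjusted p under 0.05 over all genes tested. Fold changes on this scale understate those of low genes. Alternatives were edgeR 4.0.16 and DESeq2 1.42.0 on the recovered reads, other scalings, filters and pseudocounts, thinning to the shallowest library, a replicate block, the whole tail as baseline, and each library of a group of 2 left out. Scripts were tested on simulated counts.

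Replicate libraries differed well beyond counting noise, with a chi-square of 87.44 to 197.2 for each degree of freedom. No RefSeq gene model overlaps the 7 genes followed. Members and lists were chosen with earlier results of these data known. Genes named are the members, up to 4 called genes of a list with the largest change, well-read lineage markers and the 10 genes most like the members. Others, such as IL34, CSF2RB, MRC1 and LYZ, were named after their values were seen. Results of some list genes are not reported here. Poisson intervals and the floor of 3 reads reflect counting error alone. A planned motif search of promoters was not run, as no sequence was used here.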

Additional observations from a re-analysis of the deposited data

How the results depend on the processing

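Values are numbers of the 6 members called unless a log2 fold change is named. DESeq2 called 1 member at 0 hpa against the whole tail, 2 at 6 hpa and 4 at 15 hpa, then 2 at 24 hpa and 5 at 72 hpa against 0 hpa, 1 at 24 against 15 hpa, 3 at 72 against 24 hpa, and 4 at 6 hpa against the whole tail. Without a filter on low values the number was 1 at 6 hpa and 2 at 72 hpa against 0 hpa, 2 for variation over the 6 groups, and 2 at 6 hpa against the whole tail. In that last comparison edgeR called 2 with TMM and 2 with DESeq2 size factors, this last fit chosen after seeing the data, as were all alternatives of the comparisons at 6 to 72 hpa against the whole tail, and thinning gave 1. With the whole tail as the baseline the number was 4 at 15 hpa and 3 at 24 hpa. Leaving out 1 library gave 0 to 1 at 15 hpa, 0 to 1 at 24 hpa and 1 to 4 at 72 hpa against 0 hpa, 2 to 4 for variation over the groups, and 0 to 4 at 15 hpa, 0 to 2 at 24 hpa (3 with all libraries) and 4 to 5 at 72 hpa against the whole tail. The replicate block gave 0 at 15 hpa, 1 at 24 hpa and 4 at 72 hpa against 0 hpa; same-numbered libraries share only a number, with correlations of replicate differences from -0.135 to 0.271. The directions that turned were all of differences not called with all libraries. CEBPA at 0 hpa against the whole tail was 0.049 without whole tail replicate 2 and -0.90 to 0.086 over all libraries left out, and at 15 against 6 hpa -0.040 with TMM scaling, -0.043 with edgeR and -0.071 thinned. CEBPA at 24 hpa against the whole tail was -0.33 to 0.59 over the libraries left out, turning without whole tail replicate 1. LAPTM5 at 6 hpa against 0 hpa was -0.25 to 0.39, turning without 0 hpa replicate 2, and with the whole tail as the baseline 0.16 at 15 hpa and 0.54 at 24 hpa. PTPRC at 24 hpa against 0 hpa was -0.052 to 0.56, turning without 24 hpa replicate 2. The cause was not tested for any of these. Of the gene values under alternatives, 1478 kept their direction and side of the threshold, 101 lost a call, 35 gained one and 10 turned. Thinned to the shallowest library, SPI1 was no longer called at 15 and 24 hpa, nor LAPTM5 at 72 hpa, against the whole tail.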

Other observations

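SPIB, an Ets factor close to SPI1 that lymphoid cells use in mammals, is on none of the lists and was chosen after its values were seen. It had 195.7 and 142.5 normalised reads in the whole tail libraries, 389.7 and 327.9 in those of 0 hpa, 881.9 in the 6 hpa library, 1092 in the 15 hpa library, 413 and 445.5 in those of 24 hpa, and 575.7 and 663.5 in those of 72 hpa. Like SPI1 it was highest at 15 hpa and lower at 24 than at 72 hpa. Which cells make SPIB in the tadpole tail was not examined. SPIC, a further relative that marks iron-recycling macrophages in mammals, had 25.28 normalised reads at 6 hpa but 0.298 at 15 hpa, the value of a single read in that library, which is among the deepest. No test of these genes is given.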
